A study of Arabidopsis thaliana with 24 samples.

Results

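FyPP3DN seedlings of Arabidopsis thaliana were compared with wild-type (WT) seedlings in the absence of abscisic acid (ABA), the hormone of seed dormancy and drought. The comparison used the 3 libraries labelled FyPP3DN and the 3 labelled WT among the libraries grown without added hormone, which is 6 of 24 libraries. Both groups were of the Columbia 0 ecotype and were seedlings grown vertically for 5 d and then kept for another 24 h under the same conditions with no ABA, by the sample labels. The series' design text instead gives 6 d of growth and 1 d of treatment, so the age at harvest is uncertain by 1 d. The other libraries were used here only where named and for the estimate of the spread. They were the same genotypes given 5 µM ABA for 24 h, and nrp1 nrp2 and nrp1 nrp2 FyPP3DN seedlings with and without ABA, 3 libraries each. FyPP3DN is a form of the phosphatase FyPP3 known as dominant negative, carried in addition to the resident gene. The labels name neither the promoter that drives it nor the number of lines, and do not say whether replicates came from separate plants or plates. The p-values therefore measure the spread between libraries, estimated over all 24, which may be technical.

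FyPP3 and its close relative FyPP1 are catalytic subunits of protein phosphatase 6, which work in a complex with SAL regulatory subunits. In Arabidopsis the enzyme is known to dephosphorylate PIN auxin carriers, which sets the direction of auxin flow, and the transcription factor ABI5, which lowers its stability and so restrains ABA signalling. A dominant-negative subunit takes up partners of the normal one without its activity, and the question asked of the unstressed seedlings is what the transgene changes before any hormone is given.

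Values are deposited FPKM, fragments per kilobase of gene scaled to the library's mapped fragments. The smallest steps between FPKM values placed library depth at 21.65, 16.51 and 19.98 M fragments (M, 1e6) in FyPP3DN and at 24.19, 18.87 and 18.88 M in WT, and between 18066 and 18470 genes had an FPKM of at least 1. Transcripts of the plastid genome were abundant in 1 library of each group, FyPP3DN replicate 2 at 18.8% of summed FPKM and WT replicate 1 at 16.8%, against 0.0737% or less in the other 4. The labels give poly(A) selection or rRNA removal for all libraries without saying which was used where. Because each group held 1 such library, results are also given with this library type as a term in the fit, called the library-type block below. RNA came from seedlings in bulk, so fewer cells of a type and less RNA per cell cannot be told apart.

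The targeted gene was read first. FYPP3 (AT3G19980, TAIR10.1 chr3:6961736-6965206, forward strand) had 46.7, 34.5 and 85.2 FPKM in FyPP3DN and 18.3, 15.7 and 12.7 FPKM in WT. All 3 FyPP3DN libraries lay above all 3 WT libraries, by 1.68 ± 0.20 on the log2(FPKM + 1) scale (SE, adjusted p = 0.000121, limma). That SE comes from a spread shared over all 24 libraries. In a fit to the 6 compared libraries alone FYPP3 did not pass (adjusted p = 0.265, limma). The WT libraries were alike, with a mean of 15.6 ± 2.82 FPKM (SD, n = 3), while the FyPP3DN libraries spread widely, with a mean of 55.5 ± 26.4 FPKM (SD, n = 3). The coding sequence of FYPP1 is 91.9% identical to that of FYPP3, over 912 bases each, so some reads could be assigned to either. FYPP1 nevertheless had 21.1, 22.2 and 22.7 FPKM in FyPP3DN and 23.0, 24.3 and 22.1 FPKM in WT, a difference of -0.07 ± 0.08 that did not pass the test. Transcripts of the SAL1 to SAL4 regulatory subunits differed by -0.10 to 0.08 and did not pass either. FPKM does not separate transcripts of the transgene from those of the resident gene.

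The smallest p-value belonged to another gene. MMZ3 (AT2G36060, TAIR10.1 chr2:15142653-15144221, reverse strand), which encodes a ubiquitin-conjugating enzyme variant that pairs with UBC13 to build lysine-63-linked ubiquitin chains, had 13.4, 11.4 and 10.45 FPKM in FyPP3DN and 53.5, 58.9 and 56.4 FPKM in WT. The groups were far apart and tight, at 11.8 ± 1.53 and 56.3 ± 2.71 FPKM (SD, n = 3 each). The difference was -2.17 ± 0.08 (adjusted p = 8.29e-13). The other members of this enzyme family did not pass the test: MMZ1 differed by -0.16, MMZ2 by -0.12, MMZ4 by 0.11, UBC35 by -0.05 and UBC36 by 0.12. Neither gene pair that carries the name NRP passed. The pair with a DCD domain, AT5G42050 and AT3G27090, differed by 0.03 and 0.01. The histone chaperones NRP1 and NRP2 of the NAP1 family differed by 0.29 and 0.33.

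**Figure D1:**
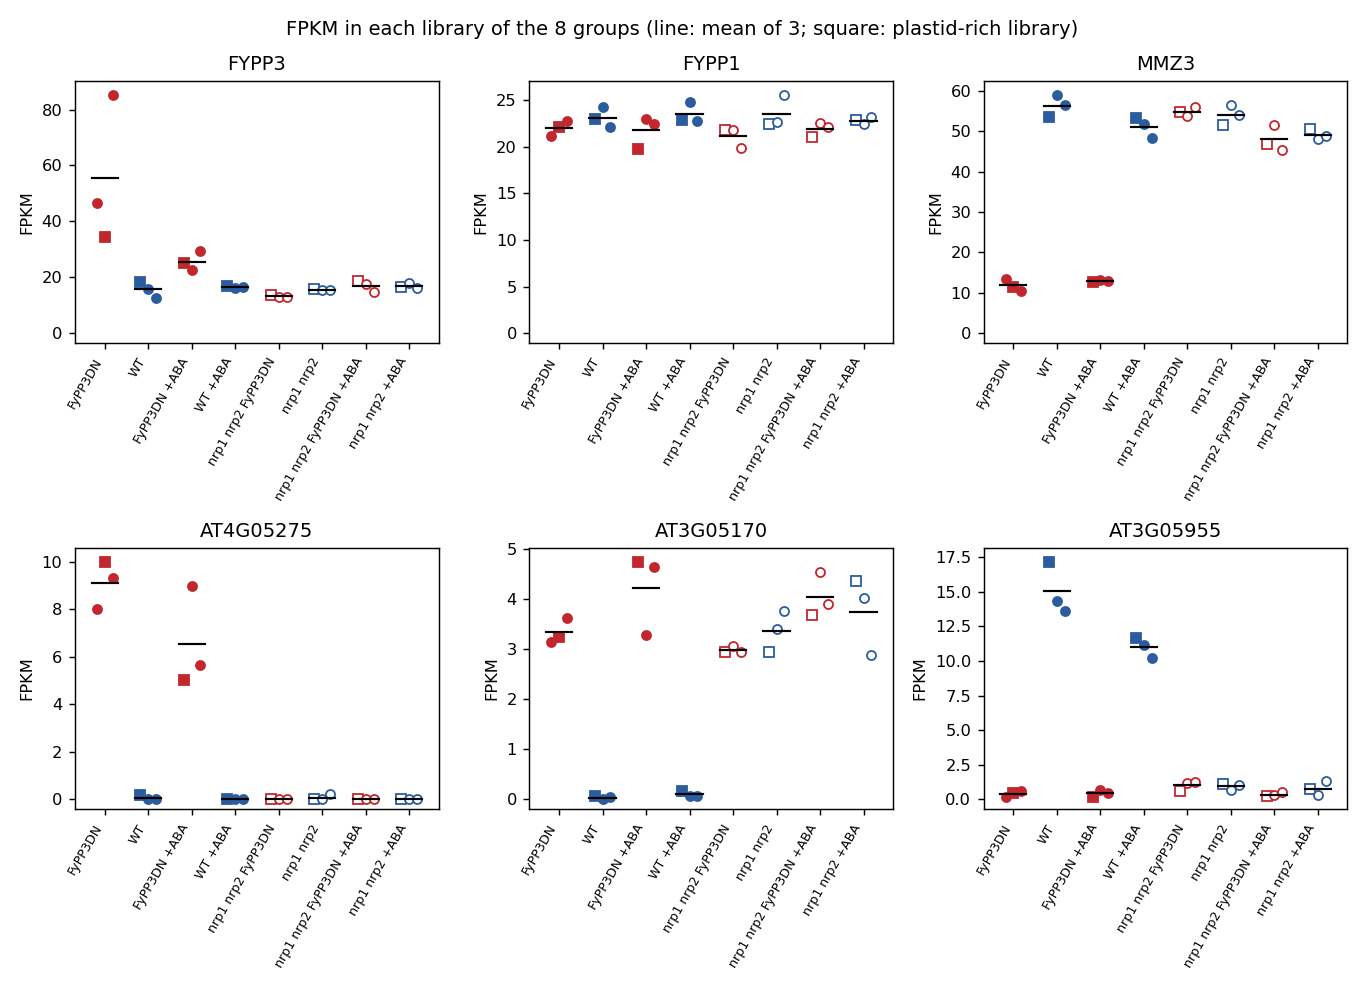
FPKM of 6 genes (y axes) in each library of the 8 genotype and treatment groups (x axes), with the group mean as a line and plastid-rich libraries as squares. AT4G05275 was high and MMZ3 low in both FyPP3DN groups, FYPP3 was high in FyPP3DN without ABA and did not pass the test with ABA, and AT3G05170 and AT3G05955 had FyPP3DN-like levels in all 4 nrp1 nrp2 groups as well.

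3 further genes, none with a symbol, were almost present or absent by genotype. AT4G05275, annotated as other RNA, had 8.01, 9.98 and 9.29 FPKM in FyPP3DN and 0.17, 0 and 0 FPKM in WT (3.25 ± 0.15, adjusted p = 3.15e-11). AT3G05170, of the phosphoglycerate mutase family, had 3.15, 3.25 and 3.62 FPKM in FyPP3DN and 0.06, 0 and 0.04 FPKM in WT (2.07 ± 0.13, adjusted p = 4.36e-09). AT3G05955, also annotated as other RNA, went the other way, with 0.17, 0.44 and 0.64 FPKM in FyPP3DN and 17.2, 14.3 and 13.6 FPKM in WT (-3.51 ± 0.19, adjusted p = 4.65e-10). Each of the 3 passed the filter on low values through its higher group alone, so the groups had to be apart. The levels of AT3G05170 and AT3G05955 were far from WT in another genotype too: in the nrp1 nrp2 libraries without ABA, AT3G05170 had 2.95, 3.41 and 3.77 FPKM and AT3G05955 had 1.09, 0.69 and 1.05 FPKM. Between nrp1 nrp2 and WT without ABA, a comparison that uses the same WT libraries, 17 genes passed the test in all (0.0925%).

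Of 18374 genes with an FPKM of at least 1 in at least 3 of the 6 libraries, 112 passed an adjusted p of 0.05 (0.61%). They comprise 47 genes higher in FyPP3DN (0.256%) and 65 lower (0.354%). The higher genes had a median difference of 1.15 and 29 of them exceeded a 2-fold difference on the log2(FPKM + 1) scale, and their median FPKM was 11.5 in FyPP3DN and 4.12 in WT. The lower genes had a median of -0.80, 25 exceeded 2-fold, and their median FPKM was 6.29 in FyPP3DN and 10.6 in WT. In every one of the 112 the FyPP3DN and WT libraries did not overlap, a property of 14.3% of all genes tested, 6.09% with FyPP3DN higher and 8.2% with FyPP3DN lower. Separate groups in a called gene therefore add no support to its call. With the library-type block, all 112 were called among 473 genes (2.57%), 213 higher (1.16%) and 260 lower (1.42%). The count depends on the spread used: a fit to the 6 libraries alone called 9 genes, 7 higher and 2 lower, all of them among the 112. The higher ones were AT4G05275, AT3G05170, OSM34, PDF2.1, AT2G15220, BHLH38 and EXT4, and the lower ones MMZ3 and AT3G05955. FYPP3 and the other named genes did not pass in that fit. Leaving out 1 of the 6 libraries at a time kept the call of 38 of the 112 in all 6 fits.

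**Figure D2:**
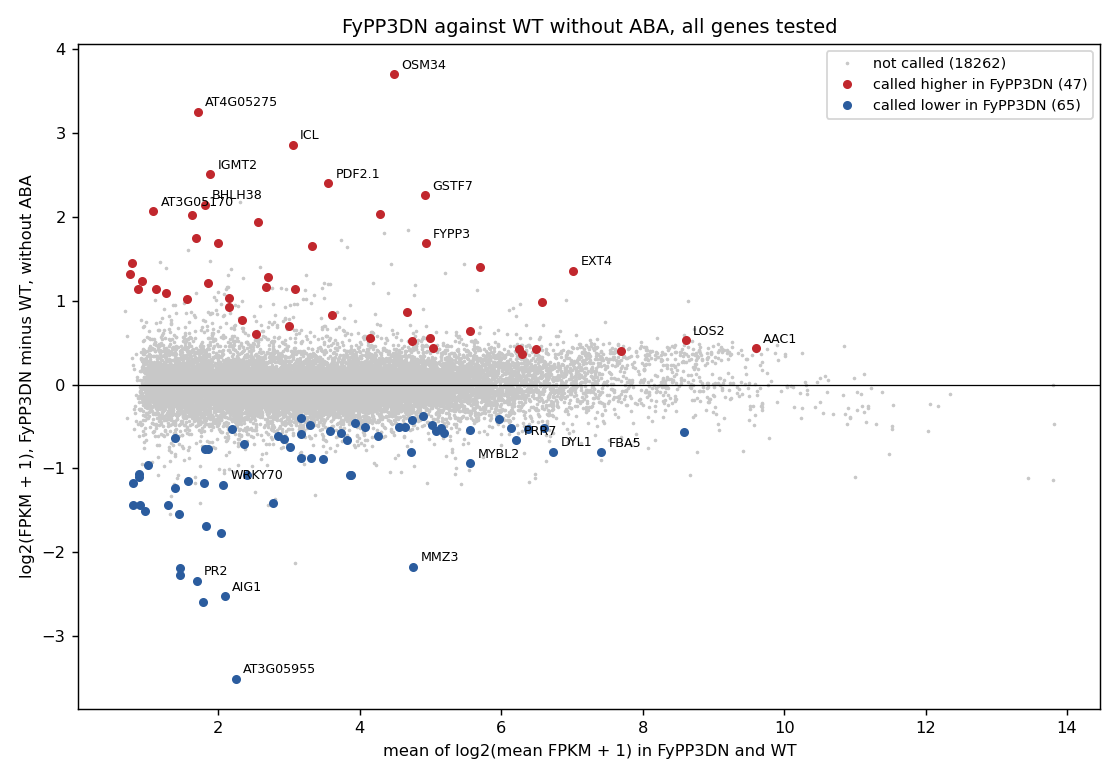
Difference between FyPP3DN and WT without ABA on the log2(FPKM + 1) scale (y axis) against mean level (x axis) for the 18374 genes tested, with the 47 genes called higher in red and the 65 called lower in blue. The largest differences were in genes of low to middle level in WT, up to 3.70 for OSM34 and down to -3.51 for AT3G05955.

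The filter on low values had genes close to its threshold. Of the genes tested, 386 reached an FPKM of 1 in exactly 3 libraries, with a median highest value of 1.73, and 482 others reached it in exactly 2 and were left out, with a median highest value of 1.42. A gene that passes only through its higher group had to differ: 12 of the 47 higher genes and 14 of the 65 lower genes were such genes. Among the genes described, these were AT4G05275, AT3G05170, IGMT2, BHLH38, CYP71A12, PDF1.4, AT2G15220, AT5G52390, AT3G21352, AT5G47000 and AT2G18150 in the higher direction. In the lower direction they were AT3G05955, AT2G01422, AT2G06995, PCR1, PR1, PR2, TAT3 and PNP-A. Their separation between groups follows in part from the filter. The called genes lay on all chromosomes, with 24, 27, 24, 14 and 23 on chromosomes 1 to 5. The closest neighbours were AT3G21351 and AT3G21352, 388 bases apart and both higher by 1.29 and 1.45, and the ferric reductases FRO6 and FRO7, 707 bases apart and both lower. A called gene overlapped another annotated gene in 28 cases, in 25 of them on the opposite strand, and the sources do not say whether counting used strand.

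Among the higher genes the largest difference was in a defence protein. OSM34, an osmotin of the thaumatin family known as a pathogenesis-related protein, had 72.6, 48.0 and 123 FPKM in FyPP3DN and 3.15, 4.50 and 7.84 FPKM in WT. The lowest FyPP3DN library was far above the highest WT library, with a difference of 3.70 ± 0.40 (adjusted p = 4.4e-05). PDF2.1, a plant defensin, had 25.5, 20.7 and 32.1 FPKM in FyPP3DN and 4.08, 5.22 and 3.06 FPKM in WT (2.40 ± 0.29, adjusted p = 0.000121). PDF1.4, a defensin of low level, had 2.00, 2.81 and 1.93 FPKM in FyPP3DN and 0.53, 0.51 and 0.34 FPKM in WT (1.15 ± 0.17, adjusted p = 0.00165). These were the 3 called members of a list of 12 defensin, osmotin and ethylene-type defence genes, 10 of which were tested, with a median of 0.62 against -0.02 over all genes. Of all genes 0.256% were called higher. PDF1.4 passed the filter through FyPP3DN alone, so its groups had to be apart. None of the 10 was called lower. With ABA the list's median was -0.11, against 0.01 over all genes.

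Promoters of genes in the defence groups are shown to let their letters be compared: 3 genes called higher, then PR2 and WRKY70, called lower. Each line gives the 250 bases before the annotated start in TAIR10.1, read 5′ to 3′ on the gene's strand: OSM34 chr4:7026225-7026474 (reverse), PDF2.1 chr2:538000-538249 (forward), CYP81F2 chr5:23187590-23187839 (forward), PR2 chr3:21189968-21190217 (reverse) and WRKY70 chr3:20910624-20910873 (reverse). Capitals mark matches on either strand to 3 motifs. TTGAC is the core of the W-box bound by WRKY factors and reads GTCAA when reversed. The GCC-box of ethylene response factors has the letters GCCGCC. The core of the ABA-responsive element is ACGTG.
OSM34: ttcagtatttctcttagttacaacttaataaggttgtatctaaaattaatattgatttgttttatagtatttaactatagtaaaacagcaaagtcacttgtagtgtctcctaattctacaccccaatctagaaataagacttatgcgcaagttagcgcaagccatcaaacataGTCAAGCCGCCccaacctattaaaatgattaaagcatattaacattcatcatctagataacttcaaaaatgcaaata
PDF2.1: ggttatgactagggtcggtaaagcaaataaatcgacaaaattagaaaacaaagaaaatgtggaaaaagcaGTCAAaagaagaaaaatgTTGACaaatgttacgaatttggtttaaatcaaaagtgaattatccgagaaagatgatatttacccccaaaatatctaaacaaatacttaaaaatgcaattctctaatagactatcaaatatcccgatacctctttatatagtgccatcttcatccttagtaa
CYP81F2: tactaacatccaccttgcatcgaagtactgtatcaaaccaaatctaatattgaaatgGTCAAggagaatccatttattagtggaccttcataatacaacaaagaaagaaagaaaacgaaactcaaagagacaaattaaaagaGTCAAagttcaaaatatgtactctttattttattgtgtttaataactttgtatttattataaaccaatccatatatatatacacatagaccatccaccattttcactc
PR2: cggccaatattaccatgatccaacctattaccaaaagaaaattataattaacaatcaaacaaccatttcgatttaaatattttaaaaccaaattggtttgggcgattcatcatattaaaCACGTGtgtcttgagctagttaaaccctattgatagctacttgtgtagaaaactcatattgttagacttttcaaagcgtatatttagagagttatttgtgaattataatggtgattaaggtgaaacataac
WRKY70: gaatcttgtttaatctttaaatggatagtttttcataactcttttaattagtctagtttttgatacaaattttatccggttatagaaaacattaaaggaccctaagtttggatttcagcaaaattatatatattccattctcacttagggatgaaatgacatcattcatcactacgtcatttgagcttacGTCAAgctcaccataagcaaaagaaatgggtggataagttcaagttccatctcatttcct
OSM34 held 1 TTGAC core beside 1 GCCGCC, PDF2.1 and CYP81F2 held 2 TTGAC cores each, and WRKY70 held 1. PR2 held none, with 2 overlapping ACGTG matches that form CACGTG. The letters TTGAC occurred on either strand in 30 of 47 promoters of higher genes (63.8%) and in 26 of 65 of lower genes (40.0%), against 44.6% of 18286 promoters of tested genes. GCCGCC occurred in 1 of 47 (2.13%) and 2 of 65 (3.08%), against 2.0%. ACGTG occurred in 11 of 47 (23.4%) and 19 of 65 (29.2%), against 23.1%. These matches describe letters and were not tested as binding sites.

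Proteinase inhibitors, chitinases and wall proteins were also among the higher genes. TI1, a trypsin inhibitor, had 17.8, 12.5 and 18.9 FPKM in FyPP3DN and 7.99, 3.52 and 2.97 FPKM in WT (1.66 ± 0.31, adjusted p = 0.011). Its call was kept in 3 of the 6 fits that leave out a library. AT2G43620, a chitinase family gene 25834 bases away from TI1, had 125, 61.0 and 72.1 FPKM in FyPP3DN and 28.3, 30.2 and 32.8 FPKM in WT (1.4 ± 0.24, adjusted p = 0.0053). EXT4, an extensin that cross-links in the cell wall, had 187, 209 and 224 FPKM in FyPP3DN and 83.4, 72.0 and 84.0 FPKM in WT (1.36 ± 0.23, adjusted p = 0.00516). The 3 FyPP3DN libraries of EXT4 were close together, and its call held whichever of the 6 libraries was left out. LTP2, a lipid transfer protein of the cuticle, had 108, 141 and 151 FPKM in FyPP3DN and 74.2, 67.8 and 57.8 FPKM in WT, a difference of 0.98. In families grouped after values were seen, 2 of 15 tested chitinases were called higher (0.256% of all genes) and 12 had a positive difference (46.3% of all genes). Of 51 tested class III peroxidases, enzymes of wall and defence oxidation, 2 were called higher, AT5G47000 and AT2G18150, which passed the filter through FyPP3DN alone and so had to differ, and 39 had a positive difference, with a median of 0.36. No chitinase or peroxidase was called lower. In the list of expansin and xyloglucan-modifying wall genes none of 18 was called, and XTH19, at 1.15, was called only with the library-type block.

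The indole glucosinolate pathway, which makes and modifies sulphur-containing defence compounds, had 2 called members of 15 tested, both of its last steps. Of all genes 0.256% were called higher. CYP81F2, the P450 that hydroxylates the indole ring, had 7.10, 3.64 and 8.16 FPKM in FyPP3DN and 1.21, 1.43 and 0.92 FPKM in WT (1.69 ± 0.22, adjusted p = 0.000415). IGMT2, a methyltransferase that acts on the CYP81F2 product, had 7.32, 4.38 and 12.8 FPKM in FyPP3DN and 0.45, 0.61 and 0.43 FPKM in WT (2.51 ± 0.28, adjusted p = 5.44e-05). Both genes kept their call whichever of the 6 libraries was left out. CYP81F2 was separated from WT in every library, as every called gene was. IGMT2 was too, but it passed the filter through FyPP3DN alone and so had to be. The methyltransferases next to IGMT2 on chromosome 1 differed among themselves: IGMT3 was at 1.2 without passing, and IGMT1 and IGMT4 at -0.07 and -0.21. The coding sequence of IGMT2 is 86.3% identical to that of IGMT3 and 82.0% to those of IGMT1 and IGMT4, so reads could be shared. The median of the 15 genes was 0.30, and none was lower by the test. None of 13 aliphatic glucosinolate genes was called, with MAM3, a chain-elongation enzyme, the highest at 0.85.

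Indole and glutathione chemistry outside that pathway was less even between libraries. CYP71A12, a P450 of indole-3-acetonitrile and camalexin-type defence metabolism, had 3.63, 1.25 and 12.1 FPKM in FyPP3DN and 0.88, 0.28 and 0.49 FPKM in WT (1.75 ± 0.39, adjusted p = 0.043). GSTF7, a glutathione transferase, had 51.4, 34.5 and 121 FPKM in FyPP3DN and 16.6, 8.67 and 11.2 FPKM in WT (2.26 ± 0.48, adjusted p = 0.0302). In both genes FyPP3DN replicate 3 was highest, replicate 2 lowest, and the groups did not overlap. CYP71A12 passed the filter through FyPP3DN alone, so its groups could not overlap. Leaving out any library other than FyPP3DN replicate 2 lost each call, with adjusted p up to 0.173 for CYP71A12 and 0.143 for GSTF7. GSTF6, 94.3% identical to GSTF7 in coding sequence, had 73.1, 49.9 and 96.1 FPKM in FyPP3DN and 35.0, 21.3 and 21.6 FPKM in WT, a difference of 1.44 called only with the library-type block. GSTF7 was the only call in a list of 14 glutathione transferases with a median of 0.23, where 0.256% of all genes were called higher.

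**Figure D3:**
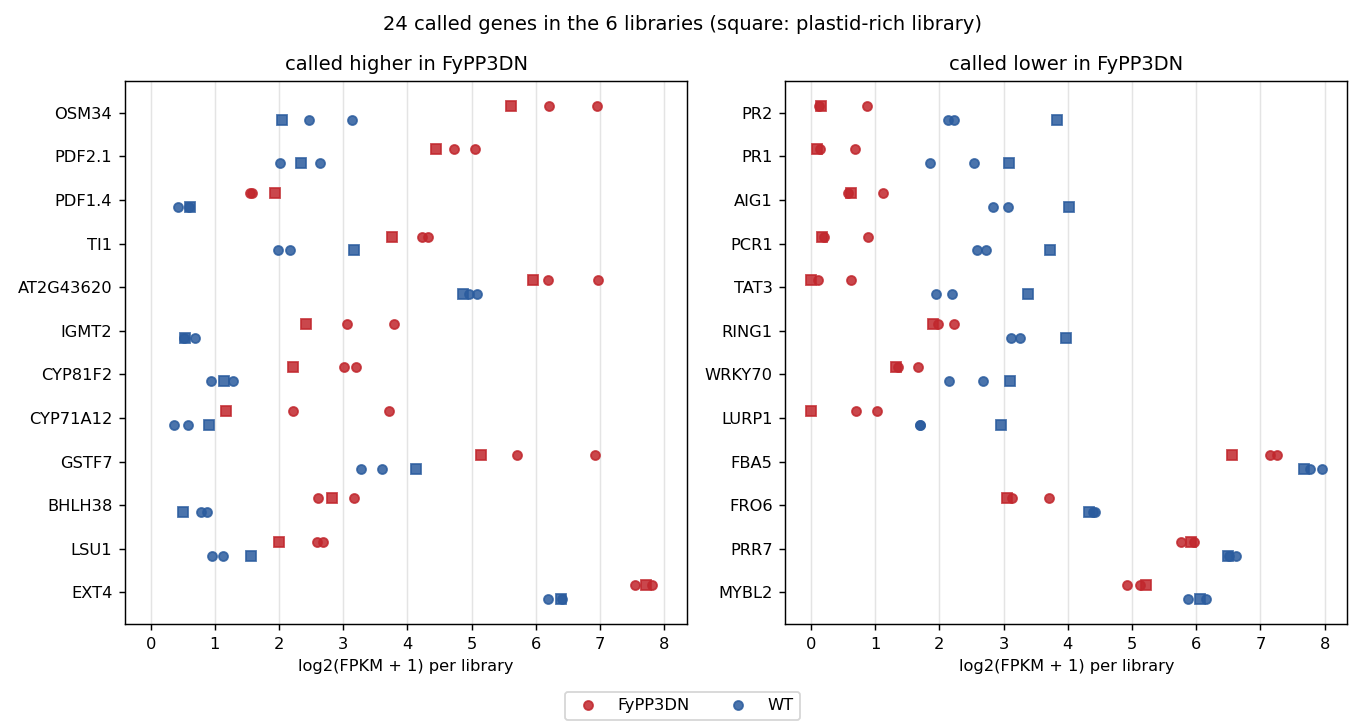
Level of 24 called genes as log2(FPKM + 1) (x axis) in each of the 6 libraries, FyPP3DN in red and WT in blue, with plastid-rich libraries as squares. The 2 colours do not overlap in any row, which the filter fixed for PDF1.4, IGMT2, CYP71A12, BHLH38, PR2, PR1, PCR1 and TAT3. The other rows are also genes called from these same libraries, none of which overlapped, so their separation follows from that choice. Among salicylic acid genes such as PR2 and AIG1, WT replicate 1, the square, was the highest library.

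FYPP3 itself was highest in FyPP3DN replicate 3 and lowest in replicate 2. OSM34, PDF2.1, IGMT2, CYP81F2, GSTF7 and CYP71A12 followed the same order of the 3 libraries, as did 17 of the 47 higher genes in all (36.2%), against 27.0% of the genes tested. An order of 3 libraries that also differ in type carries no test.

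Of the iron uptake and storage genes 1 passed the test, where 0.256% of all genes were called higher. BHLH38, a transcription factor induced when iron is short, had 7.95, 6.11 and 5.10 FPKM in FyPP3DN and 0.42, 0.73 and 0.83 FPKM in WT (2.14 ± 0.34, adjusted p = 0.00309). Its call held whichever of the 6 libraries was left out and in the plastid-poor libraries alone, and was lost with a pseudocount of 5 (adjusted p = 0.0962). Of the 8 tested genes in the iron list, 7 were positive (46.3% of all genes), with a median of 0.81. The groups did not overlap in 5 of them with FyPP3DN higher (6.09% of all genes) and in FER1 with FyPP3DN lower. BHLH38 passed the filter through FyPP3DN alone, so it had to be 1 of the 5. Its relatives BHLH100 (1.31) and BHLH39 (1.16, adjusted p = 0.0503) and the nicotianamine synthase NAS4 (0.92) were called only with the library-type block. BHLH39 had 7.30, 4.26 and 4.75 FPKM in FyPP3DN and 0.98, 2.94 and 1.86 FPKM in WT. The root uptake genes that act downstream did not pass: the reductase FRO2 was at 0.70, the transporter IRT1 at 0.44 and their regulator FIT at 0.03. FER1, which stores iron, was at -0.30. Chosen after values were seen, the phloem iron transporter OPT3 was at 0.56, and AT1G47400 and AT1G47395, which the annotation leaves uncharacterized, were at 1.41 and 1.12, all 3 called only with the block.

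2 ferric reductases of the shoot were lower. FRO6 had 7.80, 7.31 and 12.1 FPKM in FyPP3DN and 19.1, 20.04 and 20.4 FPKM in WT (-1.08, adjusted p = 0.0308). FRO7, the chloroplast reductase beside it, had 5.33, 4.36 and 5.61 FPKM in FyPP3DN and 8.49, 8.47 and 8.55 FPKM in WT (-0.65, adjusted p = 0.0378). WT was nearly constant in both genes and all FyPP3DN libraries were below it. Each call was lost when any library other than FyPP3DN replicate 3 was left out, with adjusted p up to 0.182 for FRO6 and 0.155 for FRO7.

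Smaller differences were found in abundant genes of energy metabolism. The mitochondrial ADP/ATP carrier AAC1 had 995, 828 and 877 FPKM in FyPP3DN and 656, 708 and 629 FPKM in WT (0.43, adjusted p = 0.0282). Its relative AAC2 was higher by 0.55, and VDAC2, a channel of the outer mitochondrial membrane, by 0.43. Subunits of the respiratory chain were represented by AT1G67350, higher by 0.43, and AT3G52730, higher by 0.37, the only 2 called of 91 tested respiratory chain and ATP synthase genes, whose median was 0.15. Over all genes, 0.256% were called higher. LOS2, the cytosolic enolase, had 562, 383 and 473 FPKM in FyPP3DN and 302, 346 and 321 FPKM in WT (0.53, adjusted p = 0.0407). The calls of AAC1, AAC2, LOS2, AT1G67350 and AT3G52730 were each lost in 5 of the 6 fits that leave out a library, with adjusted p up to 0.263 for LOS2. Quantile normalization also ended the calls of AAC1 (adjusted p = 0.165), LOS2 (0.294), AT1G67350 (0.0723) and AT3G52730 (0.0569). LOS2 was the only call among 17 genes of cytosolic glycolysis, 16 of which were positive, against 46.3% of all genes, with a median of 0.40. With the library-type block 9 of the 17 were called higher, against 1.16% of all genes. Of 15 tricarboxylic acid cycle genes 14 were positive, with a median of 0.34, and 6 were called higher with the block and 0 without. Proteasome subunits and chaperonins of the TCP-1 family were of the same kind: 33 of 37 and 11 of 12 were positive, with medians of 0.21 and 0.34, and 5 and 4 were called higher with the block and 0 without. These families were chosen after values were seen, and their counts are descriptions.

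ICL, the isocitrate lyase of the glyoxylate cycle that turns seed oil into sugar, had 10.2, 9.65 and 56.1 FPKM in FyPP3DN and 1.17, 1.83 and 1.88 FPKM in WT (2.86 ± 0.58, adjusted p = 0.0233). Every FyPP3DN library was above WT, and replicate 3 was several times higher than its partners. The call was lost without FyPP3DN replicate 3 or any WT library, with adjusted p up to 0.0828. It was the only call among 16 seed oil breakdown genes, where 0.256% of all genes were called higher. Malate synthase, MLS, the partner enzyme of the cycle, was at 0.56 with overlapping groups. FyPP3DN replicate 3 also held seed storage transcripts. The summed FPKM of 13 seed maturation genes was 6.66, 4.73 and 41.6 in FyPP3DN and 2.64, 2.85 and 2.80 in WT, with the cruciferin CRA1 at 0.25, 0.19 and 18.6 FPKM in FyPP3DN and at most 0.20 FPKM in WT. HSD1, an oil-body gene of that list, was at 0 in all 6 libraries. The sum was above every WT library in all 3 FyPP3DN libraries, as was ICL, and the part of these seed transcripts in the result for ICL was not tested. ABI5, the seed transcription factor that FyPP3 dephosphorylates, was the only list member tested, with 2.46, 2.08 and 2.62 FPKM in FyPP3DN and 1.07, 1.5 and 1.85 FPKM in WT. The groups did not overlap, and the difference of 0.46 was called only with the library-type block.

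The salicylic acid defence genes that passed the test were lower in FyPP3DN, while OSM34, PDF2.1 and PDF1.4 were higher. PR2, a beta-glucanase and classical salicylic acid marker, had 0.09, 0.12 and 0.84 FPKM in FyPP3DN and 13.2, 3.38 and 3.67 FPKM in WT (-2.34 ± 0.40, adjusted p = 0.00516). PR1, the best-known marker, had 0.10, 0.07 and 0.61 FPKM in FyPP3DN and 7.52, 4.84 and 2.62 FPKM in WT (-2.19 ± 0.43, adjusted p = 0.0209). WRKY70, a transcription factor that promotes salicylic acid defence, had 2.16, 1.51 and 1.56 FPKM in FyPP3DN and 7.55, 5.43 and 3.43 FPKM in WT (-1.2 ± 0.23, adjusted p = 0.0131). In all of them FyPP3DN was below WT in every library. PR1 and PR2 passed the filter through WT alone, so for them this had to be so. WT replicate 1, the plastid-rich one, was the highest in each. AIG1, a GTPase induced by avirulent bacteria, had 0.49, 0.54 and 1.18 FPKM in FyPP3DN and 15.1, 7.35 and 6.10 FPKM in WT (-2.53 ± 0.39, adjusted p = 0.00216). These were the 4 called of 18 tested genes in the salicylic acid and immunity list, all lower, where 0.354% of all genes were called lower. Of the 18, 16 were negative, against 53.7% of all genes, the median was -0.40, and SAG13 joined the 4 with the library-type block. In the 6 fits that leave out a library, PR2 and AIG1 always kept their call, WRKY70 in 4 and PR1 in 3.

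Other lower genes named were outside that list. PCR1, which belongs to a family of cysteine-rich proteins known for cadmium resistance, had 0.15, 0.13 and 0.85 FPKM in FyPP3DN and 12.2, 5.6 and 4.99 FPKM in WT (-2.59 ± 0.39, adjusted p = 0.00165). AT5G03350, a legume-type lectin, had 0.95, 1.25 and 1.17 FPKM in FyPP3DN and 12.4, 4.26 and 4.36 FPKM in WT, a difference of -1.77. RING1, a RING-type ubiquitin ligase, had 3.67, 2.75 and 2.95 FPKM in FyPP3DN and 14.7, 7.71 and 8.57 FPKM in WT (-1.42, adjusted p = 0.000856). FyPP3DN libraries were all lower, which for PCR1 had to be so, as it passed the filter through WT alone. WT replicate 1 was again highest in the 3 genes. LURP1, AGP5 and PNP-A were lower, at -1.55, -1.16 and -1.07. LURP1 and AGP5 lost their call whichever of the 6 libraries was left out, and PNP-A kept its call in 1 of those 6 fits. TAT3, a jasmonate-inducible aminotransferase, had 0.08, 0 and 0.54 FPKM in FyPP3DN and 9.43, 2.87 and 3.6 FPKM in WT (-2.27, adjusted p = 0.00427). It was the only call of 11 jasmonate genes, where 0.354% of all genes were called lower.

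The salicylic acid list had a median of -0.84 in the plastid-rich pair and of -0.23 in the plastid-poor libraries. In the 4 plastid-poor libraries of the comparison, fitted with the plastid-poor libraries of the other groups, none of the salicylic acid list was called, with adjusted p of 0.123 for PR2, 0.163 for PR1, 0.155 for WRKY70 and 0.0632 for AIG1. RING1 and AT5G03350 kept their call there, as 12 of the 65 lower genes did in all. With fewer libraries, dependence on the plastid-rich pair and a loss of power cannot be told apart by a lost call. The levels varied among the other genotypes without ABA as well. PR1 had 3.73, 0.96 and 5 FPKM in those labelled nrp1 nrp2 FyPP3DN, against 0.07, 0.42 and 0.29 FPKM in nrp1 nrp2. WRKY70 had 3.9, 2.97 and 5 FPKM in those labelled nrp1 nrp2 FyPP3DN, against 2.54, 1.24 and 1.65 FPKM in nrp1 nrp2. PR1 and WRKY70 were thus near their FyPP3DN levels in nrp1 nrp2, and nearer their WT levels in the libraries labelled nrp1 nrp2 FyPP3DN. Between nrp1 nrp2 and the same WT libraries, PR2 (-2.44), AIG1 (-2.36), PCR1 (-2.72), TAT3 (-2.15) and WRKY70 (-1.18) were also called lower. PR1, at -2.17, did not pass there (adjusted p = 0.0579, limma). These falls were therefore not particular to FyPP3DN, and both comparisons share the WT libraries.

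Light and clock genes differed by small amounts where they passed. Of 31 nuclear photosynthesis genes 30 were negative, against 53.7% of all genes, with a median of -0.28, and none was called in either direction. With the library-type block 5 antenna genes were called lower, LHCB1.2, LHCA1, LHCA4, LHCB5 and LHCB1.3, at -0.56, -0.52, -0.49, -0.47 and -0.47. The block called 1.42% of all genes lower. LHCB1.2 had 3357, 3301 and 3726 FPKM in FyPP3DN and 4413, 5356 and 5591 FPKM in WT. Quantile normalization moved the list's median to -0.17. PRR7, a repressor in the circadian clock, had 53.5, 59.8 and 61.3 FPKM in FyPP3DN and 89.5, 90.3 and 97.5 FPKM in WT (-0.66 ± 0.13, adjusted p = 0.0209), the only call among 12 clock genes. Its call was kept in 2 of the 6 fits that leave out a library, and 0.354% of all genes were called lower. LZF1, a zinc-finger protein that promotes greening in light, had 38.5, 40.4 and 35.7 FPKM in FyPP3DN and 55.8, 55.7 and 57.0 FPKM in WT (-0.55, adjusted p = 0.0053). Replicates of each group nearly coincided for LZF1.

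Regulators of pigment, wax and sugar use were among the other named lower genes. MYBL2, a repressor of anthocyanin synthesis, had 29.3, 36.3 and 33.8 FPKM in FyPP3DN and 65.6, 57.6 and 70.4 FPKM in WT (-0.94, adjusted p = 0.00427). WRI4, which promotes wax synthesis in stems, was lower, at -0.89. FBA5, a fructose-bisphosphate aldolase, had 153, 93.7 and 141 FPKM in FyPP3DN and 203, 217 and 248 FPKM in WT (-0.81, adjusted p = 0.00422). TPS11, of the trehalose phosphate synthase family, had 9.21, 9.62 and 11.8 FPKM in FyPP3DN and 14.5, 16.7 and 19.0 FPKM in WT (-0.66, adjusted p = 0.00869). The groups were separate in all of these, as in every called gene. DYL1, a dormancy-associated protein, was lower, at -0.80, as were AKINBETA1, a regulatory subunit of the SnRK1 energy-sensing kinase, at -0.51, and SVP, a repressor of flowering, at -0.55. Of the 6 fits that leave out a library, MYBL2 and FBA5 kept their call in all 6 and TPS11 in 4. WRI4 kept its call in 3, DYL1 and AKINBETA1 in 2 and SVP in 1. TPS11 was the only call of 9 carbon starvation genes, where 0.354% of all genes were called lower. LSU1, a marker of sulphur shortage, was the only call of 9 phosphate and sulphur starvation genes and was higher by 1.21, with 5.45, 2.99 and 5.05 FPKM in FyPP3DN and 1.95, 1.19 and 0.95 FPKM in WT. Among all genes 0.256% were called higher, and the call of LSU1 was kept in 4 of the 6 fits that leave out a library.

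**Figure D4:**
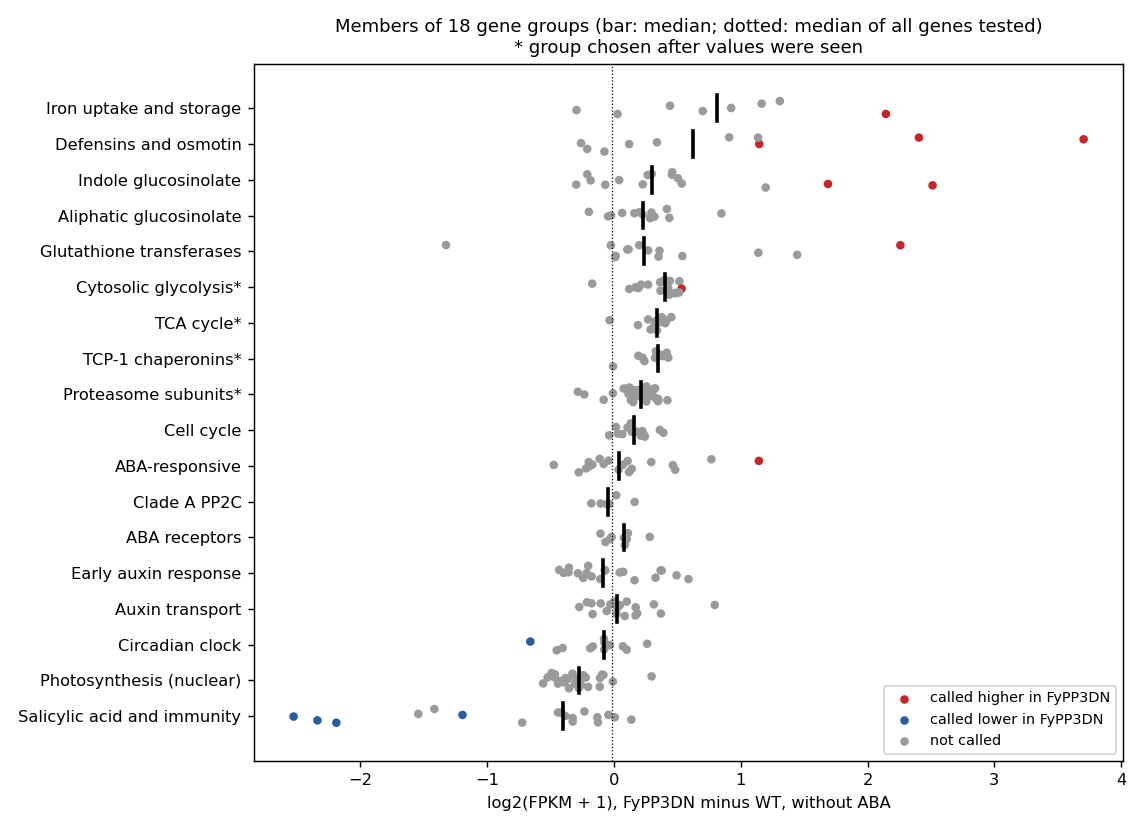
Difference between FyPP3DN and WT without ABA on the log2(FPKM + 1) scale (x axis) for each tested member (point) of 18 gene groups (rows), with the group median as a bar and the median of all genes as a dotted line. Iron and defensin genes lie to the right with medians of 0.81 and 0.62, and salicylic acid genes to the left at -0.40.

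In the lists for hormones tied to the known work of FyPP3, the calls were LTP3 and CYP707A2. None of 20 early auxin response genes, 19 auxin transport genes, 9 ABA receptors, 6 clade A PP2C phosphatases or 9 type-A cytokinin response regulators was called. With 0.61% of all genes called, no call in lists of this size is near that share. Of 19 tested ABA-responsive genes 1 was called, LTP3, where 0.256% of all genes were called higher, and the median was 0.04. LTP3, a lipid transfer protein, had 13.6, 7.51 and 13.3 FPKM in FyPP3DN and 3.05, 7.45 and 3.83 FPKM in WT (1.14 ± 0.25, adjusted p = 0.0401). The lowest FyPP3DN library barely cleared the highest WT library, and the call was lost without FyPP3DN replicate 1 or 3 or WT replicate 1 or 3. CYP707A2, an ABA 8′-hydroxylase that breaks the hormone down, had 2.64, 2.53 and 3.31 FPKM in FyPP3DN and 4.76, 4.92 and 3.88 FPKM in WT (-0.53, adjusted p = 0.0365), the only call of 8 ABA metabolism genes. Of all genes 0.354% were called lower, and the call of CYP707A2 was kept in 2 of the 6 fits that leave out a library. None of 14 cell cycle genes was called, with 13 positive, against 46.3% of all genes, and a median of 0.16. Lists for root hairs, root tissue, heat shock, flavonoids, nitrate and proline held no call either. Summed root markers were lowest in the plastid-rich libraries, and within each library type FyPP3DN was above WT. The sum of 9 root tissue genes was 85.2, 32.5 and 79.2 FPKM in FyPP3DN and 32.0, 66.2 and 64.9 FPKM in WT. The sum of 5 root hair genes was 10.3, 1.51 and 14.6 FPKM in FyPP3DN and 1.22, 7.69 and 6.64 FPKM in WT. None of these root markers was at 0 in a library, and their part in the results for peroxidases and photosynthesis genes was not tested.

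The same genotypes with ABA give a second measurement from other libraries. There, 142 of the genes tested were called between FyPP3DN and WT (0.773%), 19 higher (0.103%) and 123 lower (0.669%). Of the 47 genes higher without ABA, 38 were positive with ABA, where 53.0% of all genes were, and 5 were called higher. Of the 65 lower genes, 51 were negative, where 47.0% of all genes were, and 8 were called lower. The 5 higher genes were AT4G05275, AT3G05170, ICL, EXT4 and HEI10, and the 8 lower genes were MMZ3, AT3G05955, AT2G01422, AT2G06995, AT5G03350, PR2, PCR1 and AGP5. MMZ3 had 12.5, 13.0 and 12.9 FPKM in FyPP3DN and 53.2, 51.9 and 48.4 FPKM in WT with ABA, and ICL had 11.6, 13.5 and 22.5 FPKM in FyPP3DN and 1.47, 2.2 and 2.24 FPKM in WT. Both genes kept the separation seen without the hormone. FYPP3 itself had 24.9, 22.5 and 29.3 FPKM in FyPP3DN and 16.69, 15.97 and 16.35 FPKM in WT with ABA, a difference of 0.61 that did not pass (adjusted p = 0.23). The median differences of the 47 and the 65 genes with ABA were 0.29 and -0.32, against 0.01 over all genes.

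**Figure D5:**
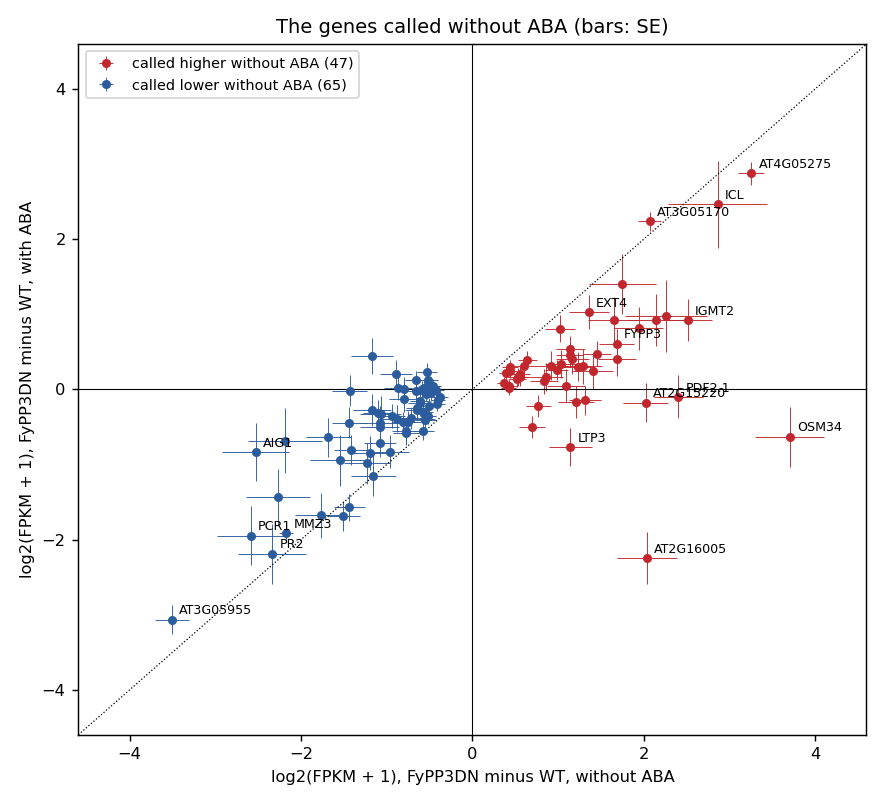
Difference between FyPP3DN and WT with ABA (y axis) against the difference without ABA (x axis), both on the log2(FPKM + 1) scale, for the 112 called genes with SE bars. OSM34, PDF2.1, AT2G15220 and AT2G16005 lie far below the dotted line of equal differences, and AT4G05275, ICL and MMZ3 lie near it.

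A set of higher genes differed between the treatments by the test of the difference itself. That test called 24 of all genes (0.131%), among them 7 of the 47 higher genes and none of the 65 lower ones. It subtracts the same difference without ABA by which these genes were called. Part of a negative value in a higher gene therefore follows from that choice, and the counts of 7 and none are descriptions. OSM34 had 56.2, 36.4 and 124 FPKM in FyPP3DN and 90.3, 112 and 95.7 FPKM in WT with ABA, and the difference with ABA minus that without was -4.33 ± 0.57 (adjusted p = 0.00168). FyPP3DN without ABA averaged 81.1 ± 38.1 FPKM and WT with ABA 99.2 ± 11.1 FPKM (SD, n = 3 each). PDF2.1 had 21.4, 30.5 and 30.0 FPKM in FyPP3DN and 36.5, 32.8 and 20.2 FPKM in WT with ABA, and the differences themselves differed by -2.51 ± 0.41 (adjusted p = 0.0104). AT2G15220, a basic secretory protein, had 4.76, 4.40 and 6.57 FPKM in FyPP3DN and 0.44, 0.61 and 0.52 FPKM in WT without ABA. With ABA it had 9.16, 3.74 and 10.9 FPKM in FyPP3DN and 8.81, 8.78 and 7.68 FPKM in WT (-2.2, adjusted p = 0.0123). FyPP3DN without ABA overlapped WT with ABA in OSM34 and PDF2.1 and lay below it in AT2G15220.

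AT2G16005, of a family with an MD-2-related lipid recognition domain, changed sign. It had 34.4, 20.3 and 67.8 FPKM in FyPP3DN and 6.72, 9.43 and 8.28 FPKM in WT without ABA, a rise of 2.04 ± 0.35 (adjusted p = 0.00541). With ABA it had 44.96, 22.3 and 43.0 FPKM in FyPP3DN and 173, 177 and 162 FPKM in WT, and was called lower, at -2.25 (adjusted p = 0.0026). FyPP3DN stayed in the same range in both treatments while WT with ABA was far above it. LTP3 had 104, 87.8 and 81.4 FPKM in FyPP3DN and 130, 140 and 206 FPKM in WT with ABA, with a difference of differences of -1.91 ± 0.36 (adjusted p = 0.0306). RHA2B, a RING-type ubiquitin ligase that acts positively in ABA signalling, and AT5G52390 were the other 2 of the 7, at -1.2 and -1.46.

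The libraries labelled nrp1 nrp2 FyPP3DN did not share the pattern. Without ABA they had 13.5, 12.9 and 12.8 FPKM of FYPP3, against 15.6, 15.2 and 15.2 FPKM in nrp1 nrp2, so the gene was not raised in them. In the same libraries MMZ3 was at 54.8, 53.7 and 56.0 FPKM, against 51.5, 56.5 and 54.0 FPKM in nrp1 nrp2, and AT4G05275 was at 0 in the 3 so labelled. Between those groups, 8 of all genes were called (0.0435%), among them FBA5, which was higher by 0.97 in the labelled libraries. Of the 47 higher genes 16 had the same sign there, where 40.2% of all genes were positive, and of the 65 lower genes 3 did, where 59.8% were negative. A test of the difference between the 2 comparisons called 759 genes (4.13%), FYPP3, MMZ3 and AT4G05275 among them. Since the FYPP3 level goes against the label of these libraries, no direction of a FyPP3DN effect in the nrp1 nrp2 background was drawn from them.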

How the data were processed

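Seedling RNA was sequenced in 24 libraries of 8 groups, 3 each. The authors deposited FPKM values for 32833 genes per library, with reads trimmed by Trimmomatic 0.30 and aligned by HISAT2 2.0.1 to TAIR10, per the submitters' processing notes; the notes name no counting tool. No counts were used. Gene names and positions came from RefSeq's TAIR10.1 annotation, matched by gene ID for 32548 of the 32833, and promoters are its sequence. Depth was estimated from the steps of low FPKM values, of which at least 99.75% were within 0.1 of a whole fragment in each of the 24 libraries.

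Genes that reached an FPKM of 1 in 3 or more of the 6 compared libraries were tested on log2(FPKM + 1), a scale that understates changes of low genes. A means model over all 24 libraries, which share 1 estimate of the spread, was fitted with limma 3.58.1 in R 4.3.3, with an intensity trend and 2-sided moderated tests, and p-values were Benjamini-Hochberg adjusted over the 18374 genes. Members and gene lists were chosen with earlier results of these data known. Named genes are the 10 largest rises and falls among called genes with a symbol, no overlap and a mean FPKM of 5 or more in whichever group is higher, up to 3 called genes per list, up to 10 called alike with ABA, and genes of the PP6, MMZ and NRP families. Others were named after their values were seen. Alternatives covered the pseudocount, filter, scaling, libraries fitted, library type, replicate block, left-out libraries and moderation.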

Additional observations from a re-analysis of the deposited data

Results flagged for a closer look

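The difference between FyPP3DN and WT itself differed between treatments for 3 named genes, by the test of ABA minus no ABA in the same fit. That test subtracts the difference without ABA by which these genes were called, so part of each value follows from that choice. It was -4.33 for OSM34 (adjusted p = 0.00168), -2.51 for PDF2.1 (adjusted p = 0.0104) and -1.91 for LTP3 (adjusted p = 0.0306). FyPP3DN lay above WT in 3 of 3 libraries of each gene without ABA, and the groups overlapped or changed order with ABA.

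Without ABA, the difference between libraries labelled nrp1 nrp2 FyPP3DN and nrp1 nrp2 differed from that between FyPP3DN and WT for 3 genes. The first minus the second was -1.90 for FYPP3 (adjusted p = 0.00174), 2.195 for MMZ3 (adjusted p = 5.18e-10) and -3.35 for AT4G05275 (adjusted p = 1.26e-08). FYPP3 was not raised in the libraries labelled nrp1 nrp2 FyPP3DN, which goes against their label.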

How the results depend on the processing

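For the 47 genes that the naming rule chose, 926 repeats under the alternatives gave 104 lost calls, 0 gained calls and 0 changes of direction of a called gene; other genes named were not part of these repeats. Counts are given as genes higher and lower in FyPP3DN without ABA, then genes called alike without and with ABA, genes called with ABA and genes called for the difference between treatments, where these moved by over 1.5 times; as reported they were 47, 65, 13, 142 and 24. With FPKM of at least 5 they were 28, 38, 4, 77 and 15. With the library-type block they were 213, 260, 33, 297 and 79, and in plastid-poor libraries alone 28, 22, 7, 47 and 14, with 34 of the 112 genes still called. The 6 libraries alone gave 7 higher and 2 lower genes, and the 12 without ABA gave 22 and 23. Leaving out each library in turn gave 24 to 115 higher, 21 to 130 lower and 11 to 107 genes for the difference. In the order FyPP3DN replicates 1, 2, 3 and WT replicates 1, 2, 3, the counts were 26, 115, 44, 28, 32 and 24 higher, 21, 130, 67, 35, 26 and 29 lower, and 15, 107, 11, 15, 19 and 13 for the difference. The highest came without FyPP3DN replicate 2, the plastid-rich library. Other pseudocounts, scalings and moderation, and no filter, stayed within 1.5 times.

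Replicate numbers did not pair the libraries: deviations of same-numbered libraries from their group means correlated at -0.638, -0.666 and 0.589, and those of the plastid-rich pair, FyPP3DN replicate 2 and WT replicate 1, at 0.837. With replicate number as a block, 75 genes were higher and 116 lower.

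Depth of 16.51 to 24.19 M fragments limits genes near an FPKM of 1. With 3 libraries per group, a gene that was not called is not shown to be equal between FyPP3DN and WT.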
